A study of Mus musculus with 3 samples.

Results

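The 10 genes described here encode the major histocompatibility complex (MHC) class I molecules of the mouse and part of the machinery that loads them: H2-K1, H2-D1, H2-T23, B2m, Tap1, Tap2, Tapbp, Psmb8, Psmb9 and Nlrc5. They were taken by symbol from the 56980 genes of the deposited tables. Bone marrow nucleated cells of C57BL/6 mice were profiled by droplet single-cell RNA-seq 14 days after irradiation in 3 libraries, Control, IR and IR+CBD. Each library held marrow from 3 pooled mice, so each group is 1 library. What treatment did cannot be told apart from how the mice, the sort or the preparation of a library happened to vary. Control mice were not irradiated, IR mice received 6.0 Gy of gamma-irradiation, and IR+CBD mice received, by the methods, the same dose and 4 intraperitoneal injections of cannabidiol (CBD, the main cannabinoid of hemp that is not intoxicating) at 50 mg per kg around the time of irradiation. Soybean oil with DMSO was the solvent control of the study, and the text on the single-cell data describes the irradiated mice without CBD as solvent treated. Whether Control mice received solvent, and the age of these mice, are not stated. The sort enriched Lin-Kit+ progenitors over mature cells in every group, so the shares of cell types do not mirror whole marrow.

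MHC class I molecules display peptides from inside the cell to CD8 T cells and to natural killer cells. A polymorphic heavy chain pairs with the light chain β2-microglobulin, and the peptide it holds comes from the proteasome, crosses into the endoplasmic reticulum through the TAP transporter and is fitted onto the heavy chain by tapasin. Interferons are well known to raise transcription of these genes, through STAT and IRF factors and through the coactivator NLRC5, and nearly all nucleated blood cells express them.

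Promoters in the reference table were searched for letters related to interferon and NLRC5 control. The part of such control in the levels of the 10 genes was not tested. RefSeq (GRCm38.p6) gave windows for 8 of the 10 genes, and Tap2 and Nlrc5 were the other two. Tap1 and Psmb9 are transcribed away from each other, and their windows shared 275 bases, so that pair is shown once, as the bases between both start sites. The other sequences are the 250 bases before the start site on the strand of the gene, and capitals mark every match of 4 motifs searched on both strands. The Tapbp window was searched as well and is not shown.
H2-K1, chr17:34000348-34000597, minus strand: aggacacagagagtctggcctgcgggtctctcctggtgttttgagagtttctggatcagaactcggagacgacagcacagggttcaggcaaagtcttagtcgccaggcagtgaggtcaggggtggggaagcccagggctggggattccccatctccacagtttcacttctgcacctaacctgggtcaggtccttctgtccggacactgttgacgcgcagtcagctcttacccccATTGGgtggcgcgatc
H2-D1, chr17:35262844-35263093, plus strand: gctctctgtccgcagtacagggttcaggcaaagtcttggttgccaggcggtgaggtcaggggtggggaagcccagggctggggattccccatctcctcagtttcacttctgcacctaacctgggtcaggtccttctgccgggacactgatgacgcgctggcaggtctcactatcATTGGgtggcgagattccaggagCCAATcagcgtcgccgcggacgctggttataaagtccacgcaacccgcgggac
H2-T23, chr17:36032702-36032951, minus strand: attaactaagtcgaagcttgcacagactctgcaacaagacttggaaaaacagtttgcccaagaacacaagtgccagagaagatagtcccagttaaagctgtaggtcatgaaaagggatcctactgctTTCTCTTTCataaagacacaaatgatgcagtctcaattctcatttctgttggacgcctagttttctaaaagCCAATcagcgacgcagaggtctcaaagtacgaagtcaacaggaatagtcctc
B2m, chr2:122147437-122147686, plus strand: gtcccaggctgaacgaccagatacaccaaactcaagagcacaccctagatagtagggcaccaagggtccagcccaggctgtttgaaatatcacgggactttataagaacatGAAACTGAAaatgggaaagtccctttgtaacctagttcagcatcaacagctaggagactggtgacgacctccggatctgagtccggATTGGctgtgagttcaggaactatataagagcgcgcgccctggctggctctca
Tap1-Psmb9, chr17:34187331-34187555, plus strand: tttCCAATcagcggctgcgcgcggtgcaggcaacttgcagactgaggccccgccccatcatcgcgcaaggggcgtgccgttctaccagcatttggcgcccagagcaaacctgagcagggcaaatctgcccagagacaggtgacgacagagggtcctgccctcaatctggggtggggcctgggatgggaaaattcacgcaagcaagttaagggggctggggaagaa
Psmb8, chr17:34197945-34198194, plus strand: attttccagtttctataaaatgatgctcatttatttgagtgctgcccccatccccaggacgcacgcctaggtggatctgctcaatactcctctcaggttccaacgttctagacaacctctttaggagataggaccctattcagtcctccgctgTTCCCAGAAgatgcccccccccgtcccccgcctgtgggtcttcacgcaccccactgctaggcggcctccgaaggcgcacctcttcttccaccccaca

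The inverted CCAAT box ATTGG, part of the promoter module on which class I transcription factors assemble, was present in 7 of the 8 windows and in 37.4% of 32851 reference windows of the same length (250 bases before and 50 after the start). Tap1 and Psmb9 shared a single copy of it. H2-D1 carried it on both strands, H2-K1 likewise with the copy on the other strand lying past the start site, and Psmb8 lacked it. The reference table held 2 windows for H2-K1 and the first was used, so the positions in H2-K1 hold for that start site only. GAAANNGAA, 1 spelling of the core of the interferon-stimulated response element, was found in the B2m and H2-T23 windows, 2 of 8, against 8.56% of all windows. Other spellings of the element were not searched, so the missing matches in H2-K1, H2-D1 and the other windows hold for this spelling only. The interferon-related motif TTCNNNGAA (GAS) was found in the Psmb8 window alone, 1 of 8, against 8.30% of all windows, and it can overlap GAAANNGAA in its letters although it did not do so here. GGGANTTCC, 1 spelling of the κB motif, was found in 0 of 8 windows against 1.68% of all windows, and other spellings were not searched. Matches and missing matches describe these letters only and say nothing of the factors or of binding. H2-K1 and H2-D1 windows aligned over 239 bases with 88.3% identity, and the genes themselves are close paralogs, so reads may have been split between them and their separate levels are uncertain.

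After cells with fewer than 200 genes or more than 5% mitochondrial UMIs (unique molecular identifiers, each standing for 1 captured RNA molecule) were left out, 10674 Control, 10345 IR and 10273 IR+CBD cells remained, with between 173466089 and 202361682 UMIs a library and medians of 12479.5 to 14211 UMIs a cell. Between 66 and 73 kept cells a library carried a barcode also found in another library. Levels are summed UMIs of a gene per 1000000 UMIs of all genes (CPM), with an exact 95% Poisson interval, and ratios of CPM have an exact conditional binomial 95% interval. Both cover counting error only, since there were no replicates and no test between groups could be made. A gene was called higher or lower when its ratio was past 0.8 or the inverse of 0.8 (a log2 difference of 0.32 in size) and the 2 libraries together held at least 50 UMIs of it.

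Over all cells, class I genes were higher in the IR library than in Control, and lower again in IR+CBD. Of the 10 genes, 8 were called higher in IR than in Control and none lower, while 10.9% of the 20226 genes counted were called higher and 21.2% lower. The median ratio of the 10 genes was 1.47, and the median log2 ratio of all genes was -0.05. Between IR+CBD and IR, 7 of the 10 were called lower and none higher, against 7.99% of 19867 genes called lower and 8.89% called higher. Between IR+CBD and Control, which share their libraries with the comparisons above, 0 of the 10 were called higher or lower, against 9.45% and 18.1% of all genes. With the gates weighted by their Control shares, the shares of all genes called higher and lower were 11.3% and 13.5% for IR over Control and 11.2% and 11.4% for IR+CBD over Control.

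**Figure D1:**
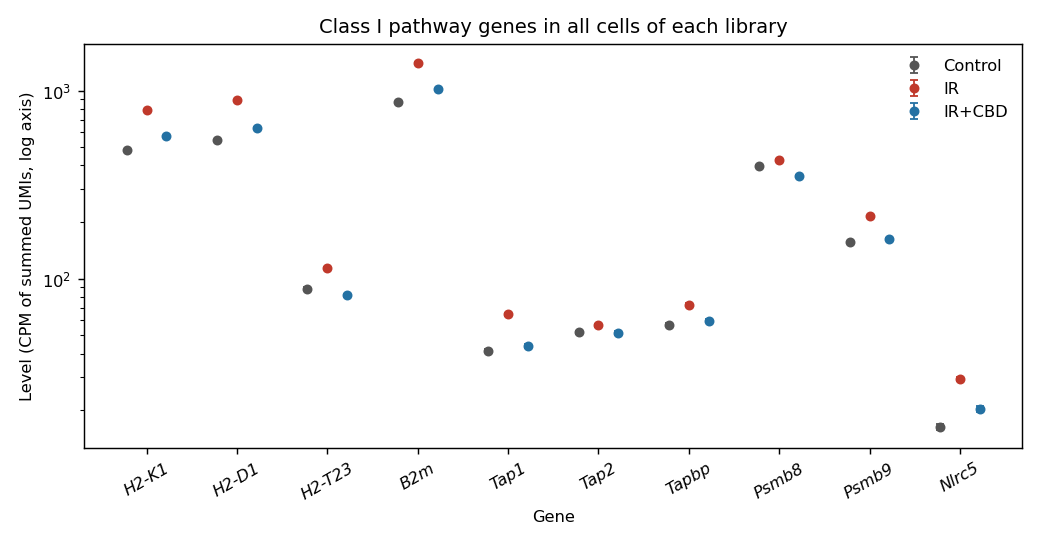
Levels of the 10 genes over all cells of the Control, IR and IR+CBD libraries, as CPM of summed UMIs on a log axis, with exact 95% Poisson intervals that are mostly smaller than the points. The IR point is the highest of the 3 for each of the 10 genes, and the distance is smallest for Tap2 and Psmb8.

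H2-K1 (ENSMUSG00000061232) and H2-D1 (ENSMUSG00000073411) encode the classical heavy chains that present peptides to CD8 T cells. H2-K1 stood at 483 CPM (480 to 486) in Control, 787 CPM (783 to 791) in IR and 573 CPM (569 to 576) in IR+CBD. H2-D1 stood at 544, 892.5 and 635 CPM in the same order. The IR level of H2-K1 was 1.63 times the Control level (interval 1.62 to 1.64) and that of H2-D1 was 1.64 times (1.63 to 1.65), so the paralogs had nearly the same ratio. In IR+CBD, H2-K1 was at 0.728 times its IR level and H2-D1 at 0.712 times, and both stayed above Control, at 1.19 and 1.17 times its level.

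H2-T23 (ENSMUSG00000067212) encodes Qa-1, a nonclassical heavy chain that is read by inhibitory receptors of natural killer cells. Its levels were 88.7 CPM in Control, 114 CPM in IR and 81.6 CPM in IR+CBD. The ratio of IR to Control was 1.28 (1.26 to 1.31), smaller than for the classical chains. IR+CBD lay at 0.717 times IR and at 0.920 times Control (0.900 to 0.941), but at 1.057 times Control with each gate weighted by its Control share.

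B2m (ENSMUSG00000060802), the light chain common to all of these heavy chains, stood at 869 CPM in Control, 1409.5 CPM in IR and 1019 CPM in IR+CBD. Its ratios, 1.62 (1.61 to 1.63) between IR and Control and 0.723 (0.718 to 0.727) between IR+CBD and IR, were close to those of H2-K1 and H2-D1.

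Peptides enter the endoplasmic reticulum through TAP, a transporter built from 1 chain each of TAP1 and TAP2, and the mRNAs of these chains differed from each other. Tap1 (ENSMUSG00000037321) stood at 41.5 CPM in Control, 64.7 CPM in IR and 43.8 CPM in IR+CBD. Tap2 (ENSMUSG00000024339) stood at 51.8, 56.5 and 51.4 CPM. The ratio of IR to Control was 1.56 (1.52 to 1.605) for Tap1 and 1.09 (1.06 to 1.12) for Tap2, and the intervals did not overlap. IR+CBD over IR was 0.677 for Tap1 (0.658 to 0.697), the lowest of the 10, and 0.910 for Tap2 (0.885 to 0.936), the highest. Against Control, Tap2 in IR+CBD was at 0.992 times (0.964 to 1.02).

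Tapbp (ENSMUSG00000024308) encodes tapasin, which bridges TAP and the heavy chain and selects the peptide. It stood at 56.9 CPM in Control, 72.8 CPM in IR and 59.9 CPM in IR+CBD, 1.28 times (1.247 to 1.31) Control in the IR library, and 0.823 times (0.803 to 0.844) IR in the IR+CBD library. It was called in the first of these only, and with cells thinned to the same depth it was at 1.22 and no longer called.

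The immunoproteasome replaces catalytic subunits of the standard proteasome and favours peptides that fit class I grooves. Psmb8 (ENSMUSG00000024338), its β5i subunit, stood at 399 CPM in Control, 430 CPM in IR and 353 CPM in IR+CBD. Psmb9 (ENSMUSG00000096727), its β1i subunit, stood at 156, 214 and 163 CPM. Psmb9 was called in both comparisons, at 1.37 (1.35 to 1.39) and 0.758 (0.747 to 0.770), and Psmb8 in neither, at 1.08 (1.07 to 1.09) and 0.822 (0.813 to 0.830). IR+CBD was below Control for Psmb8, at 0.886 times. With each gate weighted by its Control share, Psmb8 was called in both, at 1.26 and 0.788. That weighting used cells passing a single gate, with cells of no gate or of several gates lumped as a further group. The mix within that group could still differ between the libraries.

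Nlrc5 (ENSMUSG00000074151) encodes the coactivator of class I transcription, which acts at the promoters of heavy chains, B2m, Tap1 and Psmb9. It stood at 16.3 CPM (15.7 to 16.9) in Control, 29.3 CPM (28.5 to 30.01) in IR and 20.3 CPM (19.6 to 20.9) in IR+CBD. IR over Control was 1.795 (1.719 to 1.875), the largest ratio of the 10, and IR+CBD over IR was 0.693 (0.664 to 0.722). Its ratio of IR+CBD to Control, 1.24 (1.185 to 1.305), was also the largest, just under the fold required, and it passed with the median gene set to 1 (1.285), with the 50 most abundant genes left out of the total (1.26) and with gates weighted (1.33).

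The same genes were then read in cells gated by raw UMIs of lineage genes. The gates required at least 5 Mpo UMIs (granulocyte-monocyte progenitors), 2 Klf1 UMIs (erythroid progenitors), 2 Cd79a UMIs (B lineage), 5 Retnlg UMIs (mature neutrophils), 3 Siglech UMIs (plasmacytoid dendritic cells, pDC), or 1 UMI each of Cd34 and Adgrl4 (stem and multipotent progenitors). The Mpo gate held 3227 Control, 2916 IR and 3294 IR+CBD cells, the Klf1 gate 586, 1446 and 1181, and the Cd79a gate 3524, 4072 and 3456. The Retnlg gate held 1004, 1076 and 1215 cells, the Siglech gate 273, 46 and 79, and the Cd34/Adgrl4 gate 3116, 1952 and 1970. Summed markers of each lineage were higher in its own gate than in the other gates of every library. Each marker list includes the gene or genes that define its gate, so the gating itself partly set this outcome. In the Cd34/Adgrl4 gate the stem cell markers summed to 591 to 836 CPM, but the markers of granulocyte-monocyte progenitors (Mpo, Elane, Prtn3, Ctsg and Ms4a3) summed to 12219 to 14937 CPM, and 72.3 to 89.2% of the cells also passed another gate. It is therefore called by its genes and not a stem cell gate. In the Cd79a gate the B-lineage markers summed to 8140 CPM in Control, 8438 CPM in IR and 8474 CPM in IR+CBD, and mature neutrophil markers reached 9193, 8149 and 11786 CPM there, above the B-lineage sum in Control and IR+CBD. Granulocyte-monocyte progenitor markers summed to 3744 to 4536 CPM in the same gate, erythroid markers to 182, 455 and 401 CPM and plasma cell markers to 673, 246 and 437 CPM. The part of these other cells in the results of the Cd79a gate was not tested.

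Of the 60 pairs of gene and gate, 50 were called higher in IR than in Control, and all 60 ratios were above 1. In the separate gates, 8.02 to 15.1% of all genes were called higher in IR than in Control. For IR+CBD over IR, 6.43 to 13.6% of all genes were called lower. Gates share cells, so the pairs are not independent of each other. With cells thinned to 2000 UMIs, Tapbp in the Siglech gate was at 0.848 in place of 1.22 and Tap2 in the Klf1 gate at 0.968 in place of 1.253. Between IR+CBD and IR, 42 pairs were called lower, and the ratio of every pair with at least 50 UMIs was below 1. Over the alternative settings, the ratio of IR+CBD to IR reached 1.129 for Tapbp in the Siglech gate. For Tap2 it reached 1.066 in the Retnlg gate and 1.016 in the Klf1 gate.

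**Figure D2:**
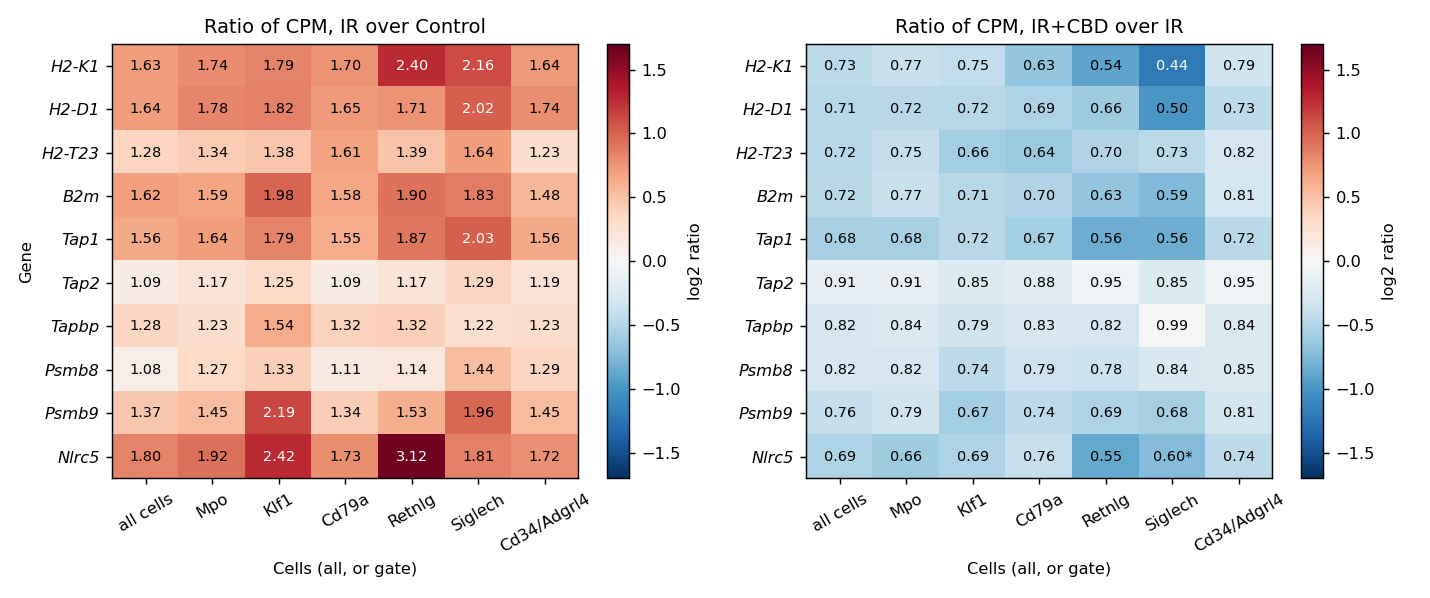
Ratios of CPM for the 10 genes in all cells and in 6 gates, IR over Control on the left and IR+CBD over IR on the right, with colour giving the log2 ratio and an asterisk marking a value on fewer than 50 UMIs. All ratios on the left are above 1, up to 3.12 for Nlrc5 in the Retnlg gate, and all on the right are below 1, down to 0.435 for H2-K1 in the Siglech gate.

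Mpo-gated granulocyte-monocyte progenitors had 8 of 10 genes called higher in IR than in Control (8.89% of 17318 genes) and 7 lower in IR+CBD than in IR (6.62%). H2-D1 stood at 498, 884 and 638 CPM in Control, IR and IR+CBD. Nlrc5 stood at 13.1, 25.1 and 16.5 CPM, with the largest ratio of this gate, 1.92 (1.80 to 2.05). Psmb8 was called here, unlike in all cells, at 1.27 (1.252 to 1.281), from 510.1 CPM in Control to 646 CPM in IR. Tap2 and Tapbp stayed under the fold, at 1.17 and 1.23. Within the gate, cells with a Cd34 UMI had a median ratio of 1.49 for the 10 genes and cells without one 1.63, and Nlrc5 was at 1.835 in the former and 2.62 in the latter.

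Klf1-gated erythroid progenitors were the only gate with all 10 genes called higher in IR than in Control, against 8.47% of 14073 genes, and 9 were lower in IR+CBD than in IR (10.6% of all). Psmb9 stood at 65.1 CPM in Control, 143 CPM in IR and 95.3 CPM in IR+CBD, a ratio of 2.19 (2.08 to 2.31) for IR over Control. B2m stood at 681, 1351 and 963 CPM, a ratio of 1.98 (1.95 to 2.02). Nlrc5 stood at 11.5, 27.8 and 19.3 CPM, a ratio of 2.42 (2.13 to 2.75). These genes were above Control in IR+CBD too, at 1.47 times for Psmb9, 1.41 times for B2m and 1.68 times for Nlrc5, and the median over the 10 genes, 1.30, was the largest of the 6 gates. Summed erythroid markers differed between the libraries in this gate, at 4082 CPM in Control, 2613 CPM in IR and 3224 CPM in IR+CBD, and their part in the result was not tested. Cells with a UMI of Gata2, an early progenitor factor, and cells without one gave median ratios of 1.67 and 1.86 for IR over Control. With cells thinned to 2000 UMIs, Tap2 in this gate turned from 1.253 to 0.968 for IR over Control, and Nlrc5 moved from 0.694 to 0.463 for IR+CBD over IR.

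Cd79a-gated B-lineage cells had 8 of 10 genes called higher in IR than in Control (11.3% of 14941 genes) and 8 lower in IR+CBD than in IR (8.24%). H2-K1 stood at 567 CPM in Control, 963 CPM in IR and 608 CPM in IR+CBD. B2m stood at 1163, 1841 and 1292 CPM. H2-T23 had its largest ratio outside the Siglech gate here, 1.61 (1.54 to 1.68), from 93.8 to 151 CPM, and was at 96.9 CPM in IR+CBD. IR+CBD over Control had a median of 1.05 for the 10 genes, with Nlrc5 highest at 1.32 (1.195 to 1.45) and Psmb8 lowest at 0.874. Cells with a UMI of Ighd, the heavy chain of IgD on mature B cells, and cells without one had close medians, 1.54 and 1.545, whereas Nlrc5 was at 2.22 (1.83 to 2.71) in the former and 1.62 (1.47 to 1.79) in the latter.

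Retnlg-gated mature neutrophils had 8 of 10 genes called higher in IR than in Control (12.0% of 11410 genes) and 8 lower in IR+CBD than in IR (10.7%). The heavy chains differed in level. H2-K1 was lowest of all gates here, at 241 CPM (232 to 249) in Control, 578 CPM (566 to 590) in IR and 310 CPM (301 to 319) in IR+CBD. H2-D1 stood at 673, 1148 and 754.5 CPM, the third highest gate. The ratio of IR to Control was 2.40 (2.31 to 2.50) for H2-K1 and 1.71 (1.66 to 1.75) for H2-D1, so the low chain had the larger ratio. Nlrc5 was rare, with 68, 239 and 129 UMIs, or 5.16, 16.1 and 8.83 CPM, and had the largest ratio of any gene and gate, 3.12 (2.37 to 4.15). Several of these ratios were larger in subsets of the gate. With predicted doublets removed, H2-K1 was at 3.86, Nlrc5 at 5.16 and Psmb8 at 1.74 in place of 1.14, and in cells that passed only this gate H2-K1 was at 4.04 and Nlrc5 at 4.85 (0.300 for IR+CBD over IR). Markers of other cells also differed between the libraries in this gate. Erythroid markers summed to 137 CPM in Control, 341 CPM in IR and 308 CPM in IR+CBD, granulocyte-monocyte progenitor markers to 4404, 3265 and 4218 CPM, and natural killer cell markers to 0.228, 5.73 and 1.71 CPM, against 250581 to 263711 CPM of mature neutrophil markers, and their part in the result was not tested.

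The Siglech gate had the highest levels of most of these genes and the fewest cells. Of the 10 genes, 9 were called higher in IR than in Control (15.1% of 7988 genes), and of 9 with enough UMIs, 6 were lower in IR+CBD than in IR (13.6% of 4942). H2-K1 stood at 653 CPM (625 to 682) in Control, 1408 CPM (1316 to 1505) in IR and 613 CPM (561 to 668) in IR+CBD, a ratio of 2.16 (1.99 to 2.34) and then 0.435 (0.390 to 0.486), the lowest of any gene and gate. H2-D1 stood at 840.5, 1700.1 and 857 CPM, and neither chain differed from Control in IR+CBD beyond counting error. Tap2 and Tapbp had intervals that included 1 in both comparisons, and Nlrc5, with 27 UMIs in IR, was at 1.14 in place of 1.81 with doubled gate thresholds. The pDC markers summed to 7441 CPM in Control, 6524 CPM in IR and 8961 CPM in IR+CBD. Mature neutrophil markers summed to 18775 CPM in the 46 IR cells, above the pDC sum there. They summed to 5038 CPM in Control and 5735 CPM in IR+CBD, below it. The part of the neutrophil markers in the result was not tested. H2-K1 was at 2.41 with predicted doublets removed and at 2.11 in cells of this gate alone.

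Cd34/Adgrl4-gated cells had 7 of 10 genes called higher in IR than in Control (8.02% of 16949 genes) and 4 lower in IR+CBD than in IR (6.43%), the fewest of any gate. The 4 were H2-K1, at 0.793, H2-D1, at 0.732, Tap1, at 0.720, and Nlrc5, at 0.736. B2m stood at 863.5, 1277.5 and 1037 CPM in Control, IR and IR+CBD and its ratio of IR+CBD to IR was 0.812 (0.803 to 0.8205), just short of the fold. Psmb8 stood at 518, 668 and 565 CPM, a ratio of 1.29 for IR over Control. Most of these cells passed the Mpo gate as well, and in the 967 Control, 246 IR and 327 IR+CBD cells outside it the median ratios of the 10 genes were 1.53 and 0.777. There Nlrc5 was higher in every library, at 29.2, 45.2 and 41.2 CPM, and its interval for IR+CBD over IR, 0.765 to 1.09, included 1. The cells in no gate, 11.3 to 15.8% of each library, had medians of 1.64 and 0.7055.

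**Figure D3:**
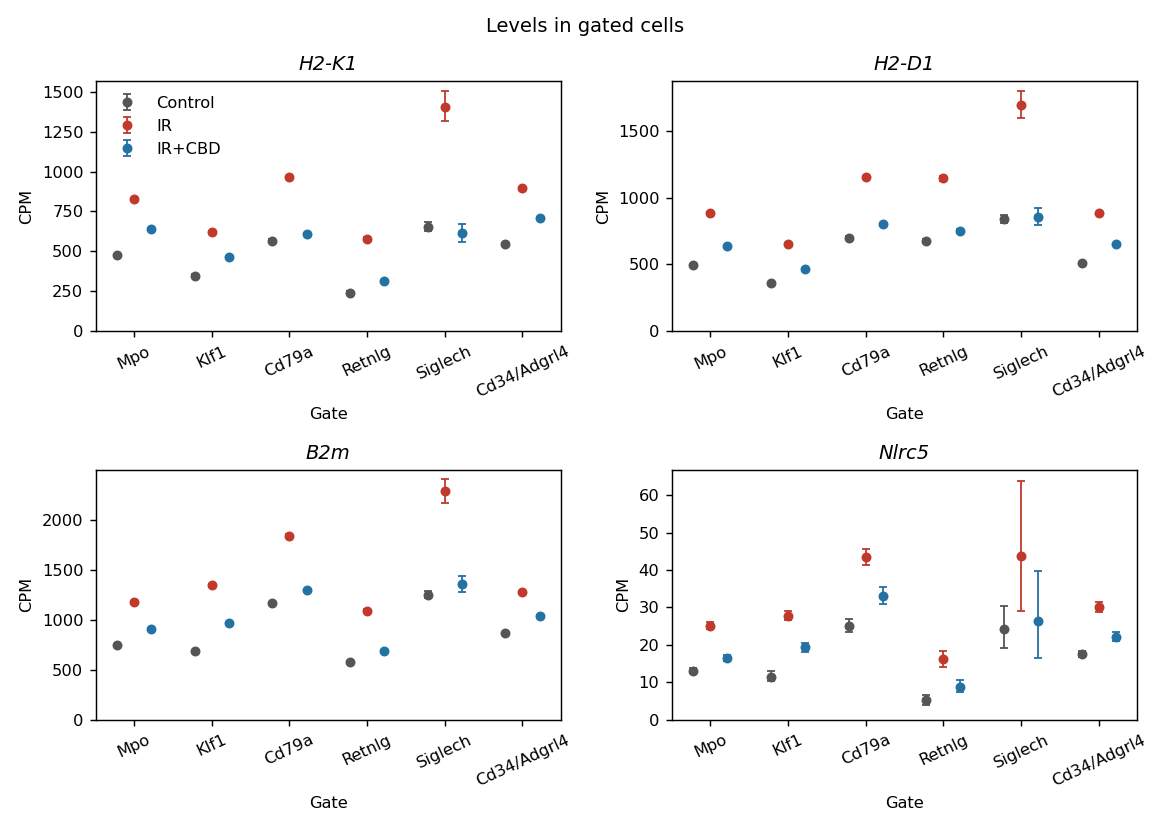
Levels of H2-K1, H2-D1, B2m and Nlrc5 in CPM in the 6 gates of the 3 libraries, with exact 95% Poisson intervals. IR points lie above Control and IR+CBD points in each gate, although the 3 Nlrc5 intervals overlap in the Siglech gate, and H2-K1 but not H2-D1 is low in the Retnlg gate.

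In Control, H2-K1 ran from Siglech, Cd79a, Cd34/Adgrl4, Mpo and Klf1 down to Retnlg, and B2m had the same order, with no overlap between neighbouring intervals for either gene. The Klf1 gate was lowest for H2-D1, H2-T23, Tap2, Psmb8 and Psmb9 in all 3 libraries, though its interval overlapped that of the next gate for Psmb9 in IR and IR+CBD and for Tap2 in all 3 libraries. The Retnlg gate was lowest for H2-K1, B2m, Tap1 and Nlrc5 in all 3 libraries, though its interval for Tap1 overlapped that of the Klf1 gate in Control and IR. H2-T23 stood apart in the Siglech gate, at 339 CPM (319 to 360) in Control against 105 CPM or less elsewhere. Tapbp was at 128 CPM in the Siglech gate and between 50 and 57.8 CPM in the other gates, whose neighbouring intervals overlapped. Psmb8 was highest in the Cd34/Adgrl4 and Mpo gates of Control, at 518 and 510.1 CPM, and at 129 CPM in the Klf1 gate. For Tap1 the 4 leading gates had overlapping neighbours, between 41.9 and 51.2 CPM, and for Nlrc5 the leading Cd79a and Siglech gates overlapped, as did Mpo and Klf1. In IR, Nlrc5 was slightly higher in the Klf1 gate than in the Mpo gate, in the reverse of the Control order. In IR+CBD the leading gate for H2-K1 was Cd34/Adgrl4, at 710 CPM (703 to 717), ahead of Mpo.

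To see whether all cells or a few carried the difference, cells were thinned to 2000 UMIs each and the UMIs of the 10 genes summed per cell. Shallower cells were left out (401 Control, 296 IR and 452 IR+CBD cells). The median Control cell had 6 such UMIs, the median IR cell 9 and the median IR+CBD cell 6, and the 10th to 90th percentiles were 2 to 11, 4 to 17 and 2 to 12. Each of these percentiles was highest in IR. Cells above the Control median made up 41.0% of the Control library, 71.9% of IR and 46.0% of IR+CBD. Without thinning, as CPM per cell, the shares above the Control median were 50, 84.6 and 57.6%. Medians per gate were 7, 12 and 7 for Cd79a, 4, 7 and 4 for Retnlg, 3, 6 and 4 for Klf1, 5, 8 and 6 for Mpo, 9, 17 and 8.5 for Siglech, and 6, 9 and 7 for Cd34/Adgrl4. At this depth IR+CBD cells were at the Control median or below it in the Cd79a, Retnlg and Siglech gates and 1 UMI above it in the other gates. At 5000 UMIs a cell, the Control and IR+CBD medians were 16 and 16 in the Cd79a gate, 9 and 10 in the Retnlg gate and 21 and 23 in the Siglech gate. Without thinning, IR+CBD cells above the Control median made up 57.3% of the Cd79a gate, 58.2% of the Siglech gate, 61.6% of the Retnlg gate and 77.8% of the Klf1 gate.

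**Figure D4:**
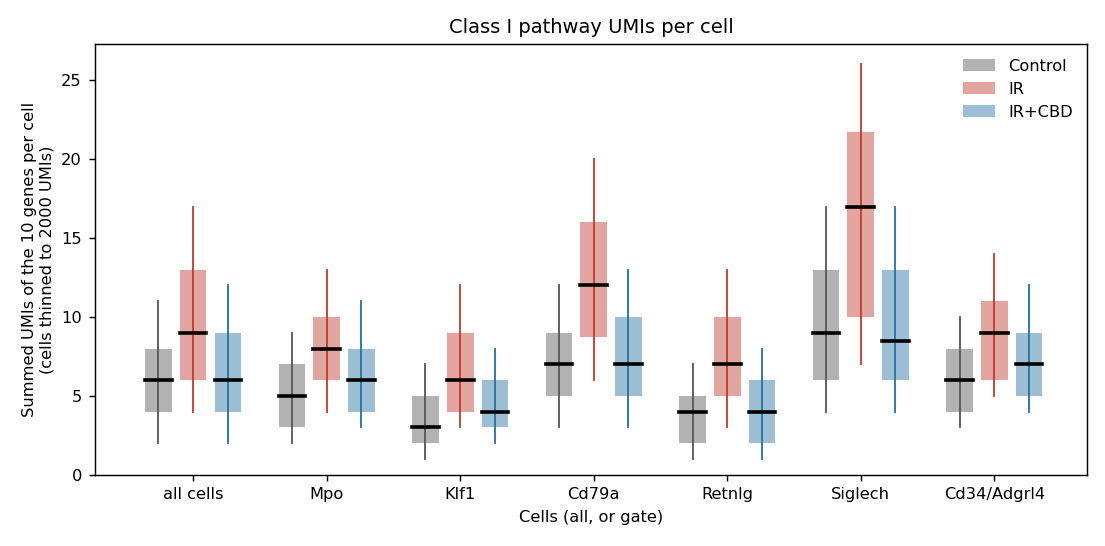
Summed UMIs of the 10 genes per cell after thinning to 2000 UMIs, in all cells and 6 gates of the 3 libraries. Black lines are medians, boxes run from the 25th to the 75th percentile and thin lines from the 10th to the 90th, and the IR median is the highest of the 3 in each set.

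The wider pathway was read from lists of related genes. Of 11 other heavy chains, 7 were called higher in IR than in Control and 2 lower, against 10.9% and 21.2% of all genes. In IR+CBD compared with IR, 7 of the 11 were called lower, against 7.99% of all genes. H2-Q7, a nonclassical chain of the Qa region, stood at 59.7 CPM in Control, 203 CPM in IR and 93.0 CPM in IR+CBD, a ratio of 3.39 (3.32 to 3.46), larger than any of the 10 genes. H2-Q6, whose sequence is so close to H2-Q7 that their separate counts are uncertain, was at 2.67, H2-T24 at 2.195, H2-T10 at 1.71, H2-T22 at 1.62, H2-Q4 at 1.56 and H2-M3 at 1.40. The 2 called lower in IR were Hfe, an iron regulator, at 0.768 and Fcgrt, the neonatal Fc receptor, at 0.603. A share of 2 in 11 is close to that of all genes. Neither was called lower with gates weighted by their Control shares, where 0 genes of the lists were lower in place of 4. Antiviral and class II genes were left out of that count. The antigen-presenting but lipid- or metabolite-binding Cd1d1 and Mr1 were at 0.939 and 0.866 and were not called.

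The remaining parts of the loading and proteasome lists were not called in either direction. Of the 5 other genes of the loading complex, 0 were called, from 0.867 for the chaperone Calr, at 1100.5 CPM in Control and 954.5 CPM in IR, to 1.098 for Tapbpl. Psmb10, the remaining catalytic subunit of the immunoproteasome, was at 1.105, and Psme1 and Psme2, the PA28 activator, at 1.05 and 1.15. The 14 genes of the constitutive proteasome core had a median ratio of 1.06 and a range of 1.02 to 1.22. Psmb5, Psmb6 and Psmb7, whose products the immunoproteasome subunits replace, were at 1.08, 1.05 and 1.04. For IR over Control in all cells, Psmb8 and Psmb10 lay within the range of the constitutive core and Psmb9 above it. For IR+CBD over IR the core ran from 0.899 to 0.990, and Psmb8, at 0.822, and Psmb10, at 0.883, lay below it. In the Mpo gate Psmb8, at 1.27 for IR over Control, lay above the core, which reached 1.114.

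Among regulators of class I transcription, Irf9, a factor of the type I interferon signal, had a larger ratio than Nlrc5. Irf9 stood at 16.1 CPM in Control, 31.7 CPM in IR and 19.1 CPM in IR+CBD, a ratio of 1.97 (1.89 to 2.06). Stat2, which pairs with it, was at 1.203 and uncalled, and was lower in IR+CBD than in IR, at 0.794. The factors of the X and Y box complex (Rfx5, Rfxap, Rfxank, Nfya, Nfyb and Nfyc) were between 0.884 and 1.09, and Irf1 was at 1.08. Irf8, a factor of pDC and monocyte lineages, was lower in IR, at 0.671, as was Nfkb1, at 0.765. Neither of the latter pair was called lower with gates weighted. Of the interferon receptors, kinases and feedback genes, Usp18, which limits type I interferon signalling, was the single gene called, at 2.895, 16.1 and 4.02 CPM, a ratio of 5.55 (5.075 to 6.08).

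Antiviral interferon genes and MHC class II genes were set beside the class I genes. All 11 antiviral genes were called higher in IR than in Control, with a median ratio of 4.36, and all 11 lower in IR+CBD than in IR, with a median of 0.278. The ratios ran from 1.303 to 11.27 for IR over Control and from 0.1735 to 0.749 for IR+CBD over IR, with Ifit2 nearest to 1 in both. Isg15 stood at 12.3 CPM in Control, 67.1 CPM in IR and 19.4 CPM in IR+CBD, and Oasl2 at 4.85, 22.7 and 5.575 CPM. Of the 10 class I genes, none had a ratio of IR to Control as large as the antiviral median. MHC class II molecules present peptides taken up from outside the cell. Of the 10, 0 were called higher in IR than in Control and 5 were lower (H2-Aa, H2-Eb1, H2-DMb1, H2-Ob and Ciita), with a median of 0.791. Over all genes, 10.9% were called higher and 21.2% lower. Class II genes were left out of the count of list genes with gates weighted by Control shares. Between IR+CBD and IR, 0 were called over all cells, against 7.99% of all genes lower and 8.89% higher, and the median was 0.937. Ciita, the class II coactivator and relative of Nlrc5, was at 0.715 while Nlrc5 was at 1.795. Medians of the class II genes for IR over Control were between 0.801 and 0.858 in the Mpo, Klf1, Cd79a and Cd34/Adgrl4 gates and 1.06 in the Retnlg gate, and they reached 1.497 in the Siglech gate, where 8 could be counted. For IR+CBD over IR the class II medians were 0.652 in the Siglech gate, 0.668 in the Retnlg gate, 0.762 in the Klf1 gate, 0.839 in the Cd34/Adgrl4 gate, 0.946 in the Mpo gate and 1.01 in the Cd79a gate.

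**Figure D5:**
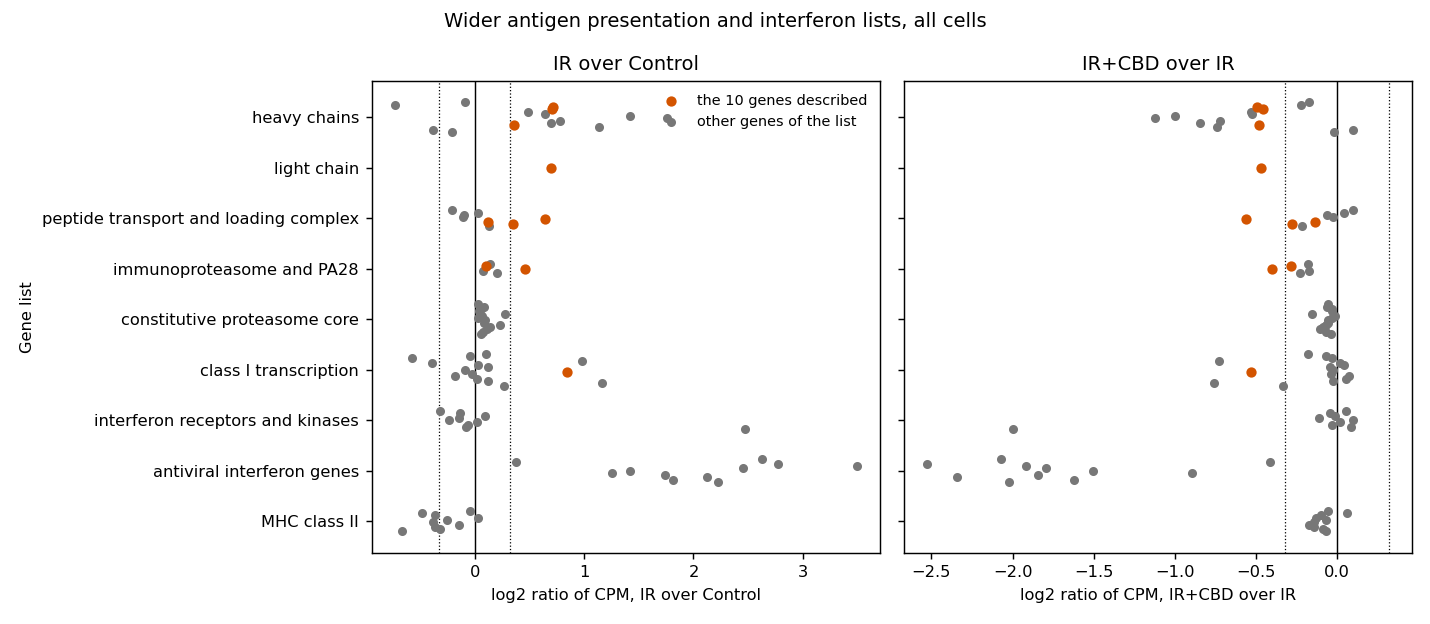
log2 ratios of CPM over all cells for genes of the antigen presentation and interferon lists, IR over Control on the left and IR+CBD over IR on the right, with 1 point a gene, the 10 genes in orange and dotted lines at ratios of 0.8 and its inverse. The points farthest from 0 in both panels are antiviral genes, although Usp18 lies beyond the antiviral median and the antiviral Ifit2 lies near the dotted lines. Class I heavy chains lie mostly beyond the dotted lines and the constitutive proteasome core lies between them.

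Across the 18 sums of 6 gates and 3 libraries, the genes whose log2(CPM + 1) profile was most like the mean of the 10, among 2253 genes with at least 50 UMIs in each sum, were Psenen (Pearson r = 0.883), Mndal (0.872), Ly6e (0.870), Yipf4 (0.867) and Arf4 (0.8425). The 18 sums share libraries, cells and depth, so these values are descriptions. Among the 10 themselves, each set against the mean of the other 9, Psmb9 (0.943) and Tap1 (0.931) were the closest, and Tap2 (0.517) and H2-T23 (0.649) the farthest. Tap1, Tap2 and Nlrc5 did not reach 50 UMIs in every sum, so their values rest partly on small counts.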

How the data were processed

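Marrow from 3 pooled mice a group was profiled in 3 droplet libraries. The authors counted UMIs per gene and cell with Cell Ranger, and the deposited values were raw counts. Version 4.0 was named in the methods and 7.0.1 in the file headers, and the submitters' processing notes named the build GRCm39. The annotation release was not given in the sources used here. RefSeq promoter windows were of GRCm38.p6, were matched by symbol, and no coordinates were converted.

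Kept cells had at least 200 genes and at most 5% of their UMIs from mitochondrial genes. UMIs were summed per library and gate, since cells are not replicates, and scaled to CPM. Predicted doublets were kept in the values of the report and removed in an alternative (Scrublet in scanpy 1.11.5, the top 0.8% of scores per 1000 cells). Gates overlap. Reads shared by near-identical heavy chain genes may have been split between them. Scripts used Python 3.11.15, numpy 2.4.6, scipy 1.17.1, pandas 2.3.3 and matplotlib 3.10.9, and the interval step was tested on simulated data.

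The 10 genes and the lists were chosen with earlier results of these data known. Beside the 10, the text names genes of the lists that were called over all cells, at most 8 a list by UMIs, and the 5 genes most like the 10 in profile. Fcgrt, Ciita and the uncalled genes named (Cd1d1, Mr1, Calr, Tapbpl, Psmb10, Psme1, Psme2, Psmb5, Psmb6, Psmb7, Stat2, Irf1 and the X and Y box factors) were chosen after their values were seen. The splits of gates by Ighd, Gata2, Cd34 and Mpo and the cells in no gate were also added after seeing the data. Other alternatives changed the cell filters, depth, scaling, gate thresholds, UMI minimum and fold. Another gene of the transcription list is not reported here.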

Additional observations from a re-analysis of the deposited data

How the results depend on the processing

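Each group was 1 library, so the values carry counting error only. No paired analysis was possible because no group had more than 1 sample. Of 240 ratios recomputed over all cells, 4 fell on the other side of 1 and 6 changed call, and of 1318 in gates, 5 and 57 did. Tap2 in the Klf1 gate turned from 1.253 to 0.968 for IR over Control with cells thinned to 2000 UMIs. With the median gene set to 1, with the 50 most abundant genes left out of the total and with gates weighted by Control shares, 1 of the 10 genes (Nlrc5) was called higher in IR+CBD than in Control in place of 0. Genes of the wider lists, antiviral and class II genes left out, called lower in IR were 0 with gates weighted and 1 at a required ratio of 1.5, in place of 4. At that ratio, 5 of the 10 genes were called higher in IR in place of 8, against 5.25% of all genes. In IR+CBD compared with IR, 0 of the 10 were called lower in place of 7, against 2.85% of all genes. The gene and gate pairs lower were 13 in place of 42. The ratio of mean summed UMIs per cell moved from 1.59 to 1.46 for IR over Control and from 0.671 to 0.717 for IR+CBD over IR with cells thinned to 5000 UMIs. That depth kept fewer cells, 7876 Control, 7328 IR and 7371 IR+CBD, so the compared cells were not the same. The cause of these changes was not tested. Depth limited Nlrc5, Tap1, Tap2 and Tapbp in the Siglech gate.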
